A study of Drosophila melanogaster with 10 samples.

Results

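The genes described here are 10 members of the methuselah family of Drosophila melanogaster, namely mth, mthl1, mthl2, mthl3, mthl4, mthl5, mthl8, mthl10, mthl14 and mthl15. They were taken by symbol from the 16 genes of this family in the count table, which in all held 29173 transcripts, 26709 of them matched to 14957 genes. The members were chosen by their read counts in these same libraries, with the genotype difference of mthl8 already known, so the genotype values of mthl8 and the notum genotype values of all 10 are a description. They stood in the fit over all genes, but no p-value of theirs is given and nothing is read from their calls. Each gene was represented by whichever of its transcripts had the most reads overall. All 10 passed the filter on low counts in the comparisons below, mthl8 only through its reads in the Rbf-KD libraries. In the muscle genotype comparison the same held for mthl15, whose WT counts of 2 and 8 lay under the minimum count of 10.

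Methuselah-family proteins are receptors of the cell membrane with an extracellular domain followed by a transmembrane part like that of G protein-coupled receptors of the secretin type, and the family has expanded in insects. Its first gene, mth, is known for its effect on lifespan and stress resistance, and its ligands include the peptides of stunted, the gene sun, whose product is also the epsilon subunit of the mitochondrial ATP synthase. The product of mthl1, also called Mist, is a receptor of the secreted protein Fog and acts through the G protein subunit Concertina (cta) and RhoGEF2 on cell contractility in the embryo. The receptor encoded by mthl10 binds growth-blocking peptides, and mthl5 is needed for the shaping of the embryonic heart. No ligand or role is given here for mthl2, mthl3, mthl4, mthl8, mthl14 and mthl15.

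Total RNA was measured in the notum part of the wing disc of wandering larvae of the last instar and in the flight muscle of pharate adults 96 h after puparium formation, with all animals reared at 25 °C. All animals carried the transgene P{UAS-Dicer2.D}1, which strengthens RNA interference, and the driver Mef2-Gal4, which expresses Gal4 in the muscle lineage. The genotype labelled WT also carried P{UAS-mCherry-RNAi}attP2, a hairpin against a gene that flies lack, and is therefore a hairpin control and not a wild-type stock. The genotype labelled Rbf-KD carried in its place P{UAS-Rbf-RNAi[GD:10696]}, a hairpin against Rbf, over the driver. Effects of the hairpin and of other differences between the stocks cannot be told apart in these data. The driver acts in the muscle precursors attached to the notum, but not in the disc epithelium that makes up much of it. Each genotype had 3 notum libraries and 2 flight muscle libraries, which makes 10. The labels do not say how many animals a library holds, nor that the libraries came from separate animals, so p-values measure the spread between these libraries, which may be technical.

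Matched genes held 42093122 to 55397857 reads in a notum library and 53862672 to 73404758 in a muscle library. Mitochondrial genes took 1.15 to 1.57% of the reads in notum and 16.1 to 22.4% in muscle. The tissue labels matched the markers. The summed TMM-scaled CPM (counts scaled to a library of 1000000 reads, here over all 10 libraries) of 12 sarcomere genes was 277 to 354 in notum and 237975 to 755166 in muscle, and that of 10 disc epithelium genes was 1031 to 1457 in notum and 50.5 to 129 in muscle. The targeted gene Rbf went against the label in muscle, where it had 4.71 and 5.63 CPM in WT and, in Rbf-KD as labelled, 14.9 and 13.9 CPM (log2 fold change 1.47 ± 0.17 SE, edgeR adjusted p = 0.00227). In notum Rbf differed by -0.25 ± 0.18 on the log2 scale, with an adjusted p of 1.00. The replicate 1 libraries of both genotypes stood apart from the other notum libraries on the first principal component, at -43.8 and -48.3 against 5.98 to 31.6.

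The genotype groups of mthl8 did not overlap in either tissue, which also held for mthl3 and mthl4. Over all genes tested, 2.90% were higher and 5.37% lower without overlap in notum. In flight muscle these shares were 40.0% and 34.2%. The counts of mthl8 differed in that they were at or near 0 in WT. Its counts were 0, 0 and 1 in WT notum and 1136, 1560 and 1524 in Rbf-KD notum. In flight muscle they were 0 and 0 in WT, and 275 and 310 in Rbf-KD as labelled. It was thus read in each of the 5 Rbf-KD libraries and was at or near 0 in each of the 5 WT libraries.

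**Figure D1:**
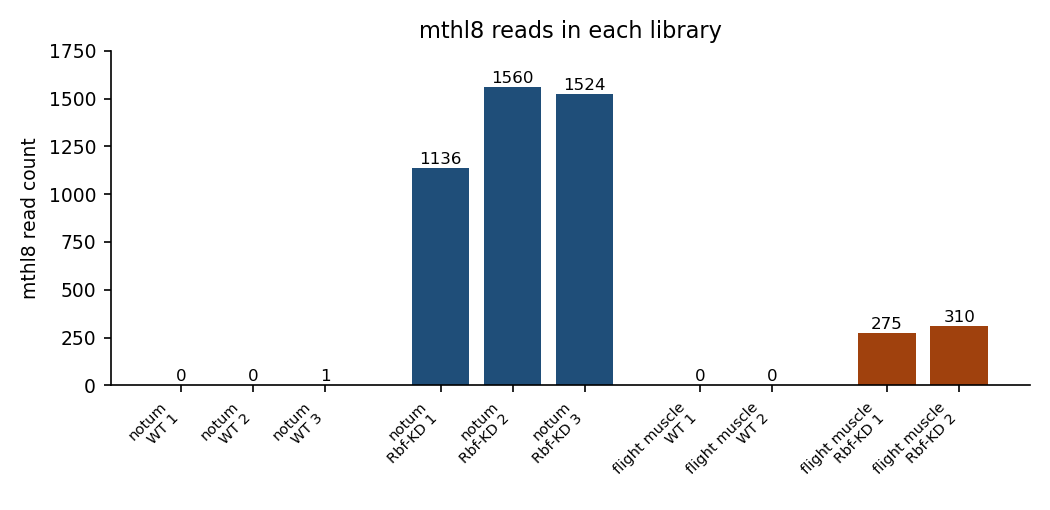
Read counts of mthl8 in each of the 10 libraries (vertical axis, raw counts; 1 bar per library, value above it). The 5 WT libraries have at most 1 read and the 5 Rbf-KD libraries between 275 and 1560.

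In CPM scaled within the tissue, mthl8 stood at 24.2, 30.9 and 32.6 in Rbf-KD notum and at 3.38 and 2.95 in the muscle libraries labelled Rbf-KD. In the 4 libraries without a read, up to 3 counts cannot be told from 0, a limit of 0.0535 and 0.0743 CPM in notum and of 0.0755 and 0.0832 CPM in muscle. The ratio of Rbf-KD to WT in notum was 4150, with a 95% interval of 744 to 163962 because its lower term is 1 read. It was 2507 without WT replicate 1, and without WT replicate 3 it became at least 942-fold. In muscle the level was at least 79.3-fold higher in the libraries labelled Rbf-KD, taking 3 counts over the WT group as the floor, and at least 37.7-fold or 41.6-fold with WT replicate 1 or 2 left out. Scaled by library totals in place of TMM, the muscle bound was 171-fold. These intervals and floors cover counting error only.

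The on and off pattern of mthl8 was looked for among all 14957 genes, as at most 5 counts over the 5 libraries of one genotype and at least 50 in each library of the other. It was found for 1 gene, mthl8 itself, with reads in Rbf-KD, and for 0 genes in the reverse direction. Both annotated transcripts of mthl8 that the table holds showed it. In the Rbf-KD libraries the shorter transcript held 42.2 to 45.6% of the count of the longer one, against a length of 50.7% of the longer one.

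The gene mthl8 (FBgn0052475) lies at the end of chromosome arm 3L, where the annotation used here lists 0 protein-coding genes between it and the end of the arm. Of the 5 protein-coding genes next to it, none of those tested between genotypes in notum passed. Over all 12117 genes tested there, 0.0743% were called higher and 0.0990% lower. Lsp1gamma, a larval serum protein gene made in fat body, differed by -0.23 on the log2 scale and CG13405 by 0.66. Pdk1, a kinase gene of the insulin pathway, differed by 0.21. These values all had an edgeR adjusted p of 1.00, while CG43149 and CG12483 had too few reads to be tested. In flight muscle Lsp1gamma was higher in the libraries labelled Rbf-KD (log2 fold change 3.59, edgeR adjusted p = 0.000429) and Pdk1 lower (-0.83, adjusted p = 0.0066). CG43149 (0.67, adjusted p = 0.263) and CG13405 (1.49, adjusted p = 0.203) did not pass there, and CG12483 was not tested. Over all 10900 genes tested in muscle, 19.4% were called higher and 20.4% lower. A list of 8 fat body genes that holds Lsp1gamma had a median of 3.67. CG43149, the nearest, had 5, 7 and 5 reads in WT notum and 10, 11 and 5 in Rbf-KD notum. All 5 neighbours had reads in each of the WT libraries. The genes most like mthl8 over the 10 libraries, by Pearson correlation of log2 CPM among 12176 genes, were CG6654 on 3R (r = 0.93), sturkopf on 3L (0.92) and the cytochrome P450 gene Cyp4p2 on 2R (0.91). These values describe 10 libraries that share tissue and genotype. Cyp4p2 came closest to an on and off pattern among them, with 136, 4 and 7 reads in WT notum, 2807, 3736 and 3353 in Rbf-KD notum, 15 and 12 in WT muscle, and 5930 and 10738 in the muscle libraries labelled Rbf-KD.

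In the notum, the neighbouring genes mthl3 and mthl4 on 2R were both lower in Rbf-KD. The counts of mthl4 were 5888, 3758 and 4773 in WT and 2553, 2690 and 2521 in Rbf-KD, or 105, 93.1 and 105 CPM against 54.4, 53.3 and 54.0 CPM. Those of mthl3 were 8814, 5292 and 6545 in WT and 4074, 4279 and 4255 in Rbf-KD, or 157, 131 and 145 CPM against 86.9, 84.8 and 91.1 CPM. For both genes every Rbf-KD library was below every WT library, and the log2 fold changes were -0.91 ± 0.07 (SE) for mthl4 and -0.72 ± 0.09 for mthl3. In tissue of mixed cells, fewer cells of a type and less RNA per cell cannot be told apart. The ratio of mthl4 to mthl3 in RPKM (CPM per kilobase of transcript) was 0.687 to 0.75 in WT notum and 0.609 to 0.647 in Rbf-KD notum, so mthl4 was the lower of the pair in all 6 notum libraries. In the 4 muscle libraries the ratio was 0.823 to 1.01, above every notum library.

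**Figure D2:**
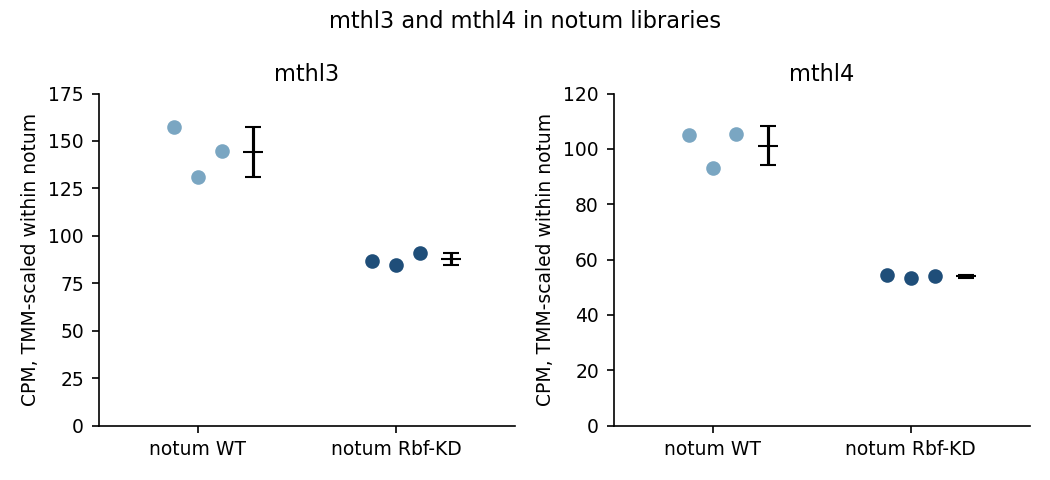
CPM of mthl3 (left) and mthl4 (right) in the notum libraries, TMM-scaled within notum, with 1 point per library and the mean ± SD (n = 3) beside each group. The Rbf-KD points lie at 84.8 to 91.1 for mthl3 and 53.3 to 54.4 for mthl4, below all WT points.

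The other 7 members had overlapping genotype groups in notum. The fold changes of mth, mthl1, mthl2, mthl5, mthl14 and mthl15 lay between -0.07 and 0.16 on the log2 scale. For mthl10 the fold change was -0.06 ± 0.36, and its spread came from WT replicate 1, at 26.5 CPM against 75.0 and 62.7 CPM in the other WT libraries. Also mthl14 varied by replicate, with 19.5 and 22.8 CPM in the replicate 1 libraries of WT and Rbf-KD and 9.64 to 14.0 CPM in the other 4. Those libraries lay apart from the rest in the principal component analysis above, and the part of that difference in these values was not tested. By edgeR's quasi-likelihood test over all genes, 1 member (mthl8) was called higher and 2 (mthl3, mthl4) lower, where "called" means an adjusted p under 0.05. Over all 12117 genes tested, 0.0743% were called higher and 0.0990% lower. The shares of genes whose groups did not overlap were 2.90% higher (here mthl8) and 5.37% lower (here mthl3 and mthl4). Because the members were chosen with this contrast known, nothing is read from these counts. The call of mthl3 was lost when any 1 of the 6 libraries was left out, and that of mthl4 without WT replicate 3 or any 1 Rbf-KD library, while their fold changes stayed between -0.75 and -0.63 and between -0.92 and -0.86. With the replicate number as a block, 82 genes were called in notum in place of 21, the members' calls being the same 3.

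Compared per length within a group, the members spanned a wide range of levels. In WT notum the order of mean RPKM was mthl3 (39.3), mth (30.9), mthl4 (28.4), mthl5 (23.6), mthl10 (9.84), mthl1 (9.57), mthl14 (3.71), mthl15 (1.43) and mthl2 (0.724), with mthl8 last. Of these neighbours mth and mthl4 overlapped between libraries, as did mthl10 and mthl1, and the other pairs did not. In Rbf-KD notum mth led (32.3), followed by mthl5 (25.1) and mthl3 (24.3), which overlapped, and mthl4 (15.4). There mthl8 stood below mthl10 and mthl1 at 4.72 ± 0.73 RPKM (SD, n = 3), overlapping with mthl14 at 4.22 ± 1.53.

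In WT flight muscle the heart gene mthl5 (8.01 and 10.1 RPKM) was the highest, followed by the Fog receptor gene mthl1 (6.74) and by mth (5.87), which overlapped with mthl1. In the muscle libraries labelled Rbf-KD the first place went to mthl14, with 7.34 and 4.32 RPKM against 0.809 and 1.73 in WT muscle, where it was above mthl15 and mthl8 only. It overlapped there with mth (5.28 and 5.08 RPKM), and mthl5 stood below mthl14, mth and mthl1 at 2.60 and 3.00 RPKM. The order within a group is not touched by the scaling between libraries.

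**Figure D3:**
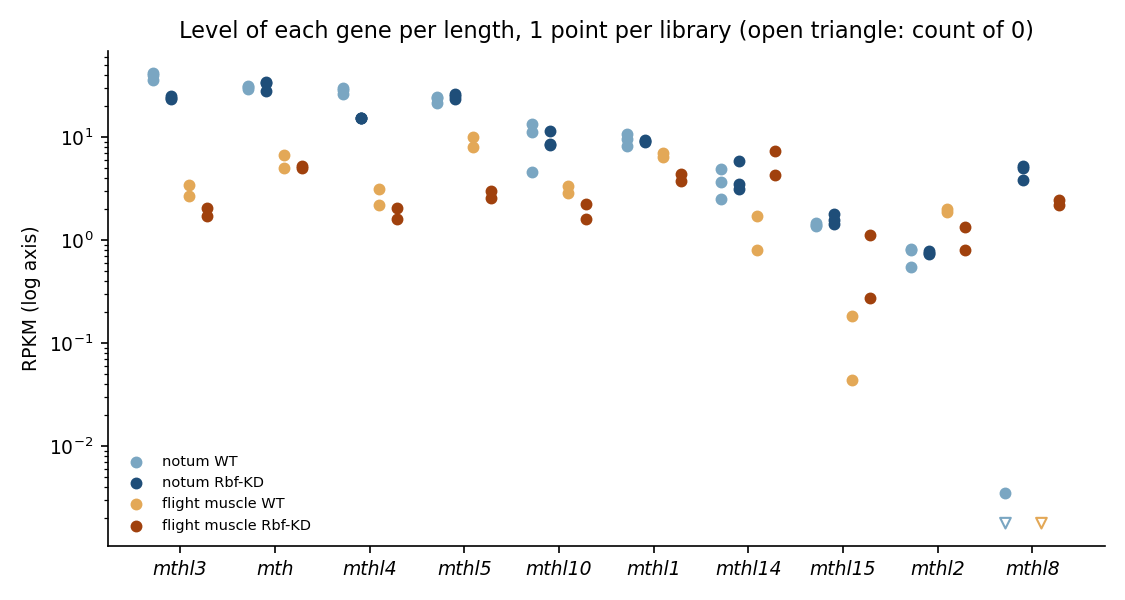
RPKM on a log axis for the 10 members, 1 point per library, colored by tissue and genotype, with open triangles for a count of 0. The members high in WT notum, led by mthl3 at 39.3 RPKM on average, were lower in muscle, and mthl8 has points above 2 RPKM in Rbf-KD libraries only.

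Most members were lower in flight muscle than in notum. In WT, 8 were called lower, and 1 higher, against 44.0% lower and 33.2% higher among all 13291 genes tested, and the members' median log2 difference was -1.60 against -0.52 for all genes. In Rbf-KD, 7 were called, all lower, against 39.7% lower and 34.7% higher among all genes, with a median of -1.76 against -0.24. In both genotypes mth, mthl1, mthl3, mthl4, mthl5 and mthl10 were lower, each tested with libraries that the other comparison's means did not use, although the fit shares its spread over all 10. The counts describe a list that was not drawn at random.

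The adjacent pair mthl3 and mthl4 was lower in muscle in both genotypes. Counts of mthl3 in muscle were 85 and 103 in WT and 133 and 141 in the libraries labelled Rbf-KD, against 4074 to 8814 in notum. The log2 difference was -3.69 ± 0.15 (SE) in WT (edgeR adjusted p = 3.24e-08) and -3.68 ± 0.14 in Rbf-KD (adjusted p = 4.64e-08). For mthl4, with 68 and 93 counts in WT muscle and 130 and 129 in the libraries labelled Rbf-KD, it was -3.40 ± 0.18 and -3.05 ± 0.17.

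The founding gene mth had 195 and 246 counts in WT muscle and 413 and 506 in the muscle libraries labelled Rbf-KD, against 5742 to 7685 in notum. Its log2 difference between tissues was -2.40 ± 0.15 in WT (edgeR adjusted p = 5.87e-07) and -2.64 ± 0.15 in Rbf-KD. The heart gene mthl5 was lower in muscle by -1.38 ± 0.13 in WT and by -3.16 ± 0.14 in Rbf-KD. The growth-blocking peptide receptor gene mthl10 differed by -1.65 ± 0.42 (adjusted p = 0.00606) and -2.31 ± 0.43, of which the WT call was lost without muscle WT replicate 1 (adjusted p = 0.052) and by limma-voom (0.0973). The Fog receptor gene mthl1 had the smallest of the 6 differences, -0.50 ± 0.13 in WT (adjusted p = 0.00537, lost at 0.0589 without muscle WT replicate 2) and -1.17 ± 0.13 in Rbf-KD.

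The remaining members depended on the genotype or on the scaling. In WT muscle mthl15 was almost unread, with 2 and 8 counts against 301 to 447 in WT notum (log2 difference -3.65 ± 0.71, adjusted p = 0.00137). In Rbf-KD its difference of -1.22 ± 0.55 did not pass (adjusted p = 0.0723), and was -2.54 (0.00257) without muscle Rbf-KD replicate 1 and -0.52 without replicate 2. It passed by library totals (-2.84), DESeq2, limma-voom and with the replicate block (adjusted p = 0.0466). In WT, mthl14 was lower in muscle by -1.55 ± 0.48 (adjusted p = 0.0155), a call lost without notum WT replicate 1 (0.0536) or muscle WT replicate 1 (0.114) and by limma-voom (0.141), and in Rbf-KD it differed by 0.46 ± 0.42 (adjusted p = 0.335). For mthl2, the only member called higher in WT muscle, the counts were 61 and 62 against 93 to 176 in notum, and the difference was 1.42 ± 0.29 on the TMM scale (adjusted p = 0.00159) but -1.30 by library totals. Within Rbf-KD, mthl8 was lower in muscle by -1.01 ± 0.27 (adjusted p = 0.00969, lost at 0.06 without muscle Rbf-KD replicate 2). In WT both tissues were at the floor for mthl8, and no fold is given.

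**Figure D4:**
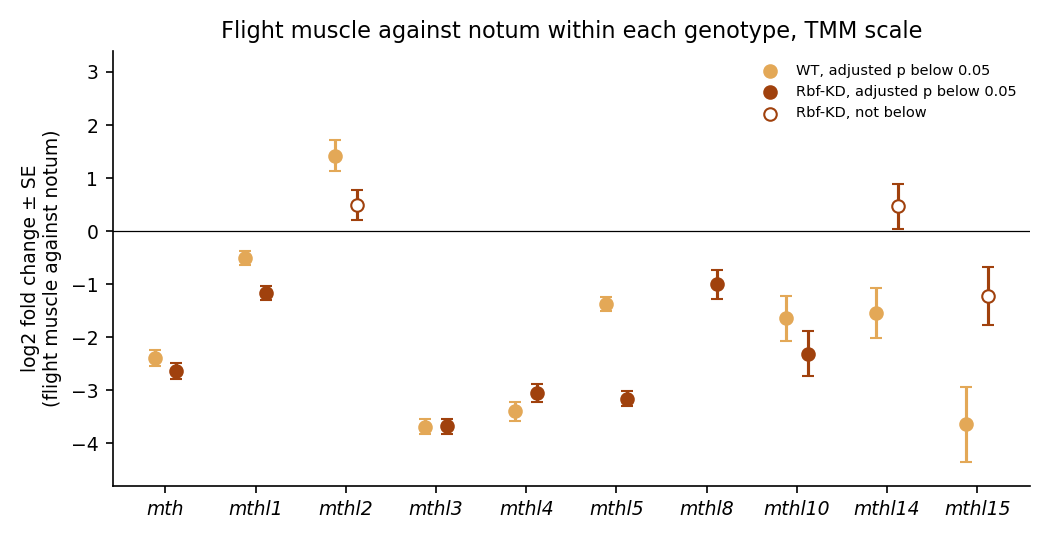
Log2 fold change ± SE of flight muscle against notum for each member within WT and within Rbf-KD (TMM scale, fit of all 10 libraries), filled where the adjusted p was below 0.05. The 6 members mth, mthl1, mthl3, mthl4, mthl5 and mthl10 lie below 0 in both genotypes, and mthl2 lies above 0 in WT on this scale but not by library totals.

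These comparisons depend on the scale. Against TMM, library totals moved the median of all genes by -2.71 in the WT tissue comparison, by -1.65 in the Rbf-KD one and by 1.11 between the genotypes in muscle. By library totals 9 members were lower in WT muscle and 10 in Rbf-KD muscle, mthl2 (-1.17) and mthl14 (-1.19) among them. Over all genes that scale called 1456 higher and 10142 lower in WT, in place of 4415 and 5851, and 2147 higher and 9108 lower in Rbf-KD, in place of 4607 and 5278.

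Between the genotypes in flight muscle, mthl5 was lower and mthl14 higher in the libraries labelled Rbf-KD, whose Rbf reads went against the label. The level of mthl5 was 6.27 and 8.32 CPM in WT and 2.02 and 2.3 CPM in Rbf-KD, both Rbf-KD values being below both WT values. Its log2 fold change was -1.76 ± 0.23 (edgeR adjusted p = 0.00339), it passed the test with any 1 library left out, and by library totals it was still lower (-0.64, adjusted p = 0.0459). The level of mthl14 was 0.679 and 1.53 CPM in WT and 6.10 and 3.55 CPM in Rbf-KD, again without overlap. Its fold change was 2.13 ± 0.50 (adjusted p = 0.026) and 3.26 by library totals, but the call was lost without WT replicate 1 (adjusted p = 0.0926) or Rbf-KD replicate 1 (0.0983). The transcript of mthl14 shares 77 of its 2091 bases with an exon of DIP2 on the opposite strand.

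The Fog receptor gene mthl1 stood at 12.7 and 12.1 CPM in WT muscle, against 7.92 and 6.61 CPM in muscle labelled Rbf-KD. Its fold change was -0.77 ± 0.16 (adjusted p = 0.0158), but the call was lost when any 1 of the 4 libraries was left out (adjusted p 0.0504 to 0.099), and by library totals the sign turned (0.34). The direction of mthl1 thus depended on the scale. The same held for mth, at 4.91 and 6.82 CPM in WT and 5.08 and 4.82 CPM in Rbf-KD, with -0.24 ± 0.22 on the TMM scale (adjusted p = 0.411) and 0.87 by library totals (adjusted p = 0.0167).

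A further 4 values missed the threshold and turned sign by library totals: mthl2 with -0.92 ± 0.38 (0.19 by totals), mthl3 with -0.75 ± 0.29 (0.37), mthl4 with -0.60 ± 0.34 (0.52) and mthl10 with -0.76 ± 0.27 (0.36). The values of mthl3 and mthl4 thus had the sign of those in notum on the TMM scale, but did not pass the test in muscle. The lowest read member in WT muscle after mthl8, mthl15, had 2 and 8 counts in WT and 103 and 32 in Rbf-KD. Its fold change was 2.53 ± 1.03 on the TMM scale and 3.66 by library totals. In this comparison mthl15 passed the filter on low counts only through the Rbf-KD libraries. Its genotype values in muscle are therefore a description without p-values, and nothing is read from its calls there. With 1 library left out the fold change of mthl15 ranged from 1.21, without Rbf-KD replicate 1, to 3.90, without WT replicate 2.

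**Figure D5:**
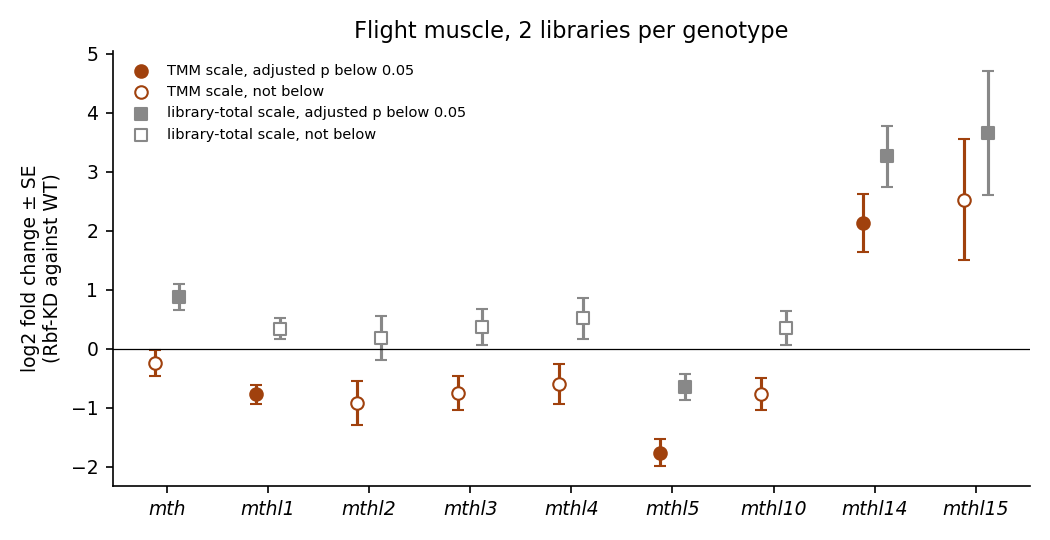
Log2 fold change ± SE of the muscle libraries labelled Rbf-KD against WT (n = 2 per genotype) for the 9 members other than mthl8, on the TMM scale (circles) and by library totals (squares), filled where the adjusted p was below 0.05. mthl5 lies below 0 and mthl14 and mthl15 above 0 on both scales, and the other 6 change sign.

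Of the 9 members other than mthl8, 1 (mthl14) was called higher in muscle labelled Rbf-KD and 2 (mthl1, mthl5) lower, against 19.4% higher and 20.4% lower among the 10900 genes tested. The call of mthl8, also higher, was fixed by how the members were chosen. The shares whose groups did not overlap were 40.0% higher (mthl8, mthl14, mthl15) and 34.2% lower (mthl1, mthl2, mthl3, mthl4, mthl5, mthl10). The median of the 9 members was -0.75 against 0.10 for all genes on the TMM scale. By library totals 7445 genes were called higher and 553 lower, in place of 2117 and 2219. Of the 9 members 3 were called higher, mthl15 among them, and 1 lower. Their median was 0.37 against 1.21 for all genes.

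Markers of some cell types differed between the muscle genotypes, here on the TMM scale and with sums in CPM scaled over all 10 libraries. Over all 10900 genes tested, 19.4% were called higher and 20.4% lower. All 8 fat body genes rose, with a median log2 fold change of 3.67, and their summed level was 1121 to 1162 CPM in WT and 8343 to 8815 CPM in the libraries labelled Rbf-KD. Of 8 hemocyte genes 2 rose, and the sum went from between 696 and 699 to between 1250 and 1340 CPM. Of 12 sarcomere genes 10 fell and 1 rose, with sums of 717561 to 755166 in WT and 237975 to 247902 CPM in Rbf-KD, and of 6 tracheal genes tested 3 fell, with sums of 389 to 460 and 179 to 185 CPM. Of 7 muscle precursor genes tested 2 rose and 2 fell, and none of the 10 disc epithelium genes or 8 neuron genes was called. By library totals the 8 fat body genes also rose, while 6 hemocyte genes rose, 2 sarcomere genes rose and 5 fell, and 1 tracheal gene fell. All 8 neuron genes, all 7 muscle precursor genes and 7 disc epithelium genes rose on that scale. It called 7445 of all 10900 genes higher and 553 lower. The part of these cells in the muscle values of mthl5, mthl14 and the other members was not tested.

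The effect of genotype was also compared between the tissues, in a fit of all 10 libraries. It was called different for 3 of the 9 members other than mthl8: mthl5, mthl1 and mthl14. This difference takes in the notum genotype values, which were known when the members were chosen. Its values for the members are therefore also a description, given without p-values, and nothing is read from the calls. For mthl5, at 79.9 to 93.5 CPM in all notum libraries, the genotype difference in muscle was lower than that in notum by a log2 value of -1.78 ± 0.18. For mthl14 it was higher by 2.01 ± 0.63, a call lost by limma-voom and with any 1 of 6 libraries left out (notum WT replicates 1 and 3, notum Rbf-KD replicates 2 and 3, muscle WT replicate 1 and muscle Rbf-KD replicate 1). For mthl1 it was lower by -0.66 ± 0.18, a call lost without muscle WT replicate 1 or muscle Rbf-KD replicate 2, and 0.41 by library totals. Among all 13291 genes, 17.6% differed upward and 13.3% downward, on the same libraries as the genotype comparisons above. For mthl3 and mthl4 the difference was 0.01 ± 0.19 and 0.34 ± 0.22 on the TMM scale, and 1.08 and 1.42 by library totals, called on the latter scale only.

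Known ligands and signaling partners of the family were read in a list of 14 genes. The ligand gene sun was far higher in muscle, where its level was 861 and 1071 CPM in WT, against 274 and 291 CPM in Rbf-KD as labelled. Between the tissues it differed by 5.50 ± 0.12 in WT and 3.82 ± 0.11 in Rbf-KD, while its receptor gene mth was lower in muscle in both. Between the muscle genotypes sun fell (-1.78 ± 0.16, edgeR adjusted p = 0.00133, and -0.66 by library totals).

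The growth-blocking peptide genes Gbp1, Gbp2 and Gbp3 were higher in WT muscle than in WT notum by 3.99 ± 0.30, 4.84 ± 0.30 and 4.49 ± 0.75 on the log2 scale, while mthl10 was lower. By library totals these differences were 1.27, 2.11 and 1.78, the last no longer passing (adjusted p = 0.0605). In muscle Gbp2 rose from 7.40 and 9.01 CPM in WT to 21.5 and 17.6 CPM in Rbf-KD as labelled (1.25 ± 0.18, adjusted p = 0.00485), and Gbp3 by 2.20 ± 0.27 (adjusted p = 0.003). These peptides are known as products of the fat body, whose marker genes rose in the same libraries. The part of fat body in the values of Gbp2 and Gbp3 was not tested. Gbp1 had a value of 0.60 ± 0.29 (adjusted p = 0.161), and rose by library totals (1.71, adjusted p = 0.00552).

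For the Fog pathway the direction in muscle depended on the scale. With TMM, fog fell (-0.62 ± 0.18, adjusted p = 0.039), RhoGEF2 rose (0.40 ± 0.12, adjusted p = 0.0443), and cta (-0.26 ± 0.14) and smog (0.29 ± 0.56), the latter encoding another Fog receptor, did not pass. By library totals RhoGEF2 (1.51) and cta (0.85, adjusted p = 0.00559) rose, and fog (0.49) and smog (1.39) did not pass. Between the tissues smog was lower in WT muscle by -1.81 ± 0.39 and cta by -0.54 ± 0.10, and fog higher by 0.52 ± 0.15, or -2.20 by library totals. Counted over the list, 4 partners rose and 2 fell in muscle with genotype, against 19.4% and 20.4% of all genes. In WT muscle 7 were higher and 6 lower than in WT notum, against 33.2% and 44.0%. Within Rbf-KD 6 were higher and 6 lower, against 34.7% and 39.7%. The genotype effect differed between tissues for 3, upward for Gbp2 and downward for sun and fog. Over all genes these shares were 17.6% upward and 13.3% downward. By library totals 11 partners rose and 1 (sun) fell in muscle with genotype, and 3 were higher and 10 lower in WT muscle and 4 and 10 in Rbf-KD muscle. On that scale the genotype effect differed upward for 11 and downward for 1. Over all genes it called 7445 of 10900 higher and 553 lower in muscle with genotype. For the difference between tissues it called 6994 of 13291 upward and 369 downward. In notum the smallest adjusted p among the 13 partners tested was that of fog (0.32 ± 0.11, adjusted p = 0.955).

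The 6 family genes outside the member list gave further values. On 3L, mthl9 lies next to mthl10, which is followed by mth, and had a mean of 62.0 CPM in WT notum. Like mthl1 it was lower in muscle labelled Rbf-KD on the TMM scale (-0.79 ± 0.17, edgeR adjusted p = 0.0158) and turned sign by library totals (0.33). It was also lower in muscle than in notum in both genotypes (-0.87 ± 0.11 and -1.52 ± 0.11). mthl11 was lower in muscle in both genotypes (-3.77 ± 0.30 and -2.42 ± 0.25). mthl7 had 389 reads over the 3 WT notum libraries and 347 over the Rbf-KD ones, against 0 in WT muscle and 8 in muscle labelled Rbf-KD. mthl12 and mthl13 had between 128 and 240 reads per genotype in notum and at most 15 in muscle, and mthl6 had at most 11 reads in any group.

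Of the 7 other receptors of the secretin and adhesion type, 6 were tested between the tissues, hec having too few reads. Of these 6, 4 were lower in WT muscle than in WT notum and 1 higher, and 3 were lower and 1 higher within Rbf-KD. The shares over all genes were 44.0% lower and 33.2% higher in WT, and 39.7% and 34.7% in Rbf-KD. Among them stan, an adhesion receptor of planar cell polarity, differed by -5.87 ± 0.46 in WT, and Cirl, a latrophilin, by -3.11 ± 0.26. Between the muscle genotypes the smallest edgeR adjusted p of the 6 tested was that of Dh44-R2, a receptor of a diuretic hormone (0.97 ± 0.32, adjusted p = 0.0629). By library totals 5 of the 6 rose, as did 7445 of all 10900 genes.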

How the data were processed

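Libraries were depleted of ribosomal RNA with Ribo-Zero and made with a stranded TruSeq kit, per the labels' protocols. The submitters' processing notes name bcl2fastq 2.17.1.14, TopHat2 2.1.1, Bowtie2 2.3.2, featureCounts, DESeq2 1.14.1 and build BDGP5. The deposited table holds raw counts per transcript, not normalized by the authors. The strand setting, the annotation and the treatment of shared reads are not given in the sources used here. Transcripts were matched by identifier to genes of a BDGP6 annotation (91.55% matched), and the unmatched rows, 9.87 to 20.3% of the counts of a library, stayed out. Only arms and neighbours are given, since the builds differ.

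Counts were analysed with edgeR 4.0.16 in R 4.3.3: filterByExpr (minimum count 10, minimum total 15), TMM, robust quasi-likelihood F test, Benjamini-Hochberg adjustment over all genes, threshold 0.05. Each genotype comparison used the libraries of its tissue, and the tissue comparisons and the difference between tissues a fit of all 10. CPM is scaled within a tissue unless stated, and RPKM over all 10 libraries. The scripts were tested on simulated data. Alternatives were library-total scaling, no filter, DESeq2 1.42.0, limma-voom (limma 3.58.1), a replicate block, and leaving out libraries. The members, lists, named genes (all family genes, partners with a known link, the 3 genes most like mthl8) and tests were chosen with earlier results of these data known. In notum, libraries of the same replicate number deviated together from their group means (r = 0.70, 0.62 and 0.22). Libraries of unlike number ranged from -0.70 to 0.53, the latter for WT replicate 2 and Rbf-KD replicate 3. The main notum fit took no pairs, and the replicate block was an alternative only. In muscle, libraries of the same number did not deviate together (r = -0.22). The listed tracheal gene dys had no match, and Cg25C and Cha were matched through older names.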

Additional observations from a re-analysis of the deposited data

Results flagged for a closer look

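For 3 members the genotype effect was called different between the tissues (edgeR, fit of all 10 libraries): mthl1 by -0.66, mthl5 by -1.78 and mthl14 by 2.01 on the log2 scale, as muscle minus notum. Over all 13291 genes tested, 17.6% differed upward and 13.3% downward. The calls of mthl1 and mthl14 were lost with single libraries left out. As the notum values were known when the members were chosen, nothing is read from these calls. By library totals mthl5 stayed below 0 and mthl14 above 0, while mthl1 turned to 0.41. Groups of 2 or 3 libraries were too small to test for single libraries that stand apart.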

How the results depend on the processing

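The genotype results in muscle and the tissue results depended most on the scale. Over the alternatives, for the log2 values of 9 members in all comparisons and of mthl8 between the tissues in Rbf-KD, 638 values kept their direction and side of the threshold, 38 lost the call, 19 gained one and 34 changed sign. By library totals 7998 genes were called in muscle between genotypes in place of 4336, and 7363 genes and 6 members for the difference between tissues in place of 4105 and 3. The log2 values that changed sign by library totals were, in muscle between genotypes, 0.87 for mth, 0.34 for mthl1, 0.19 for mthl2, 0.37 for mthl3, 0.52 for mthl4 and 0.36 for mthl10. Between the tissues they were -1.30 for mthl2 in WT, and -1.17 for mthl2 and -1.19 for mthl14 in Rbf-KD. For the difference between tissues they were 0.83 for mth, 0.41 for mthl1, 0.40 for mthl10 and 0.12 for mthl2. In the notum 130 genes were called by DESeq2, 82 with the replicate block and 40 without both replicate 1 libraries, in place of 21. The fit of all 10 libraries called 14 genes there, 1 of them a member. In muscle between genotypes that fit called 7 members, mthl8 among them, against 5325 of all 13291 genes. DESeq2 called 5 members for the difference between tissues, against 4765 of all 13220 genes. mthl10 in notum was 0.064 by limma-voom and 0.0556 with the replicate block, and mthl3 in the difference between tissues -0.17 by DESeq2 and -0.14 without both notum replicate 1 libraries. The cause was not tested.

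With 1 library left out, genes called ranged from 1 to 19 in notum (members 1 to 2), 2423 to 2998 in muscle (2 to 3), 9474 to 10272 in the WT tissue comparison (7 to 9), 8943 to 10043 in the Rbf-KD one (6 to 9) and 3181 to 4108 for the difference between tissues (1 to 4). Values near 0 changed sign: in notum mth between -0.0039 and 0.17, mthl1 between -0.13 and 0.0572, mthl2 between -0.12 and 0.19, mthl10 between -0.36 and 0.27 and mthl14 between -0.14 and 0.46, mth in muscle between -0.48 and 4.36e-05, and mthl3 in the difference between tissues between -0.16 and 0.18. In muscle, where replicate numbers did not pair the libraries, the replicate block gave 3614 genes and 3 members, and the crossed pairing, added after seeing the data, 4166 genes and 5 members. With 2 muscle libraries per genotype, levels under 0.0755 and 0.0832 CPM in the WT muscle libraries could not be told from 0.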
